A study of Mus musculus with 9 samples.

Results

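The genes described here are 10 regulators of RNA splicing that bind RNA directly and are best known from neurons. They are Rbfox1, Rbfox2, Rbfox3, Nova1, Nova2, Elavl2, Elavl3, Elavl4, Celf4 and Ptbp2. They were chosen by name from the 43629 genes with counts, with earlier results of these data known. All 10 passed the filter on low counts, which left 19753 genes to test. Each protein recognises a short motif in RNA. Rbfox and Nova proteins bind near alternative exons and favour either inclusion or skipping depending on which side of the exon they sit. The neuronal Elavl (Hu) proteins and Celf4 also act on mature mRNA, on its stability and translation, and Ptbp2 replaces its relative Ptbp1 as neurons differentiate and holds back exons of the mature neuron.

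RNA of the frontal cortex of female C57BL/6 mice was depleted of ribosomal RNA and sequenced. There were 5 wild-type mice (WT; replicates 1 and 2 aged 2 months, replicate 3 aged 3 months, replicates 4 and 5 aged 4 months) and 4 Neat1-/- mice (replicates 1 and 3 aged 3 months, replicate 4 aged 4 months, replicate 5 aged 2 months). In the Neat1-/- mice a lacZ reporter with a polyadenylation signal interrupts the gene shortly after its start, in all cells. Neat1 is a long noncoding RNA that scaffolds paraspeckles, nuclear bodies rich in RNA-binding proteins, and the comparison asks which transcripts differ in cortex without it. Every mouse gave 1 library, and nothing in the labels says whether mice shared a litter.

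Each library held between 51276067 and 64648856 counts, and levels are given as CPM, the counts scaled to a fixed library total with TMM factors. Neat1 itself went from 81.5 ± 23.0 CPM (SD, 5 WT mice) to 8.14 ± 1.18 CPM (SD, 4 Neat1-/- mice), which gives -3.33 ± 0.19 as log2 fold change and SE (edgeR adjusted p = 1.273e-06), and every library matches its label. WT replicates 3 and 4 stood apart from the rest. They had 0.234% and 0.213% of their counts in unconfirmed (TEC) and sense-intronic gene models, against 0.113% to 0.136% in the other 7 libraries. Several values below are also given without these libraries.

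Loss of Neat1 came with no called change in any of the 10 regulators. In the edgeR quasi-likelihood test with age as a covariate, 0 of 10 had an adjusted p under 0.05, where 0.0709% of all genes tested did (14 genes). The same count was 0 of 10 with DESeq2 and with limma. At an unadjusted p under 0.05, 1 of 10 was higher in Neat1-/- mice (Rbfox1) and 0 of 10 were lower, beside 4.27% and 4.03% of all genes. The count of 1 became 0 to 2 when single libraries were left out. Without Neat1-/- replicate 5, and with the replicate number as a block, the 1 was Rbfox3 in place of Rbfox1. No regulator had CPM values that separated the genotypes without overlap, in either direction, beside 1.66% of all genes for higher and 1.01% for lower values in Neat1-/- mice. The median log2 fold change of the 10 was 0.0065, with 7 above and 3 below 0, and that of all genes was -0.0002. The 95% intervals of the 10 fold changes reached from a lower bound of -14.99% to an upper bound of 11.4%. The intervals of 9 of the 10 included 0, and differences beyond these bounds lay outside every interval of this fit. Intervals were not worked out for the alternative settings, so the bounds do not cover them.

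**Figure D1:**
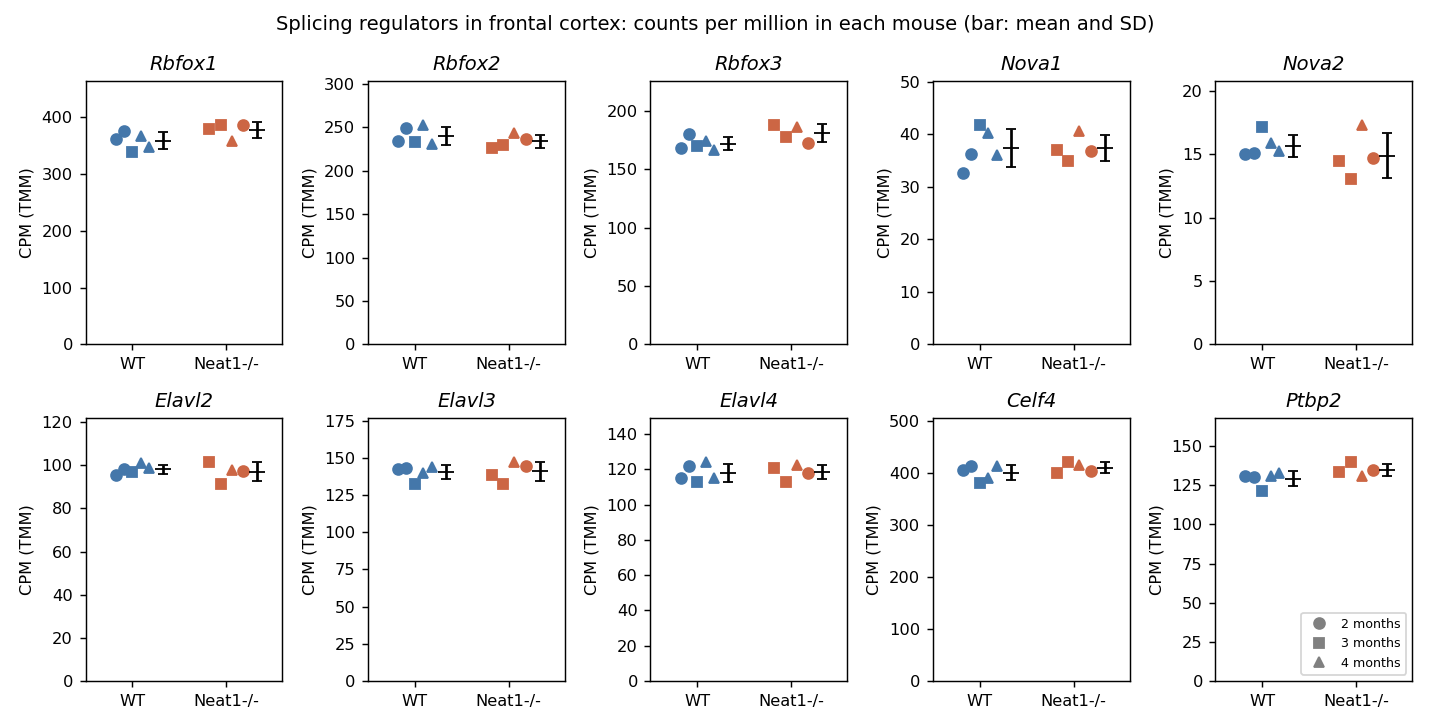
CPM (TMM-scaled, axes from 0) of each regulator in each mouse, with WT in blue and Neat1-/- in orange. The marker shape gives the age and the black bar the mean and SD of the genotype. The groups overlap in all 10 panels, and the points of Nova1 and Nova2 scatter most.

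The regulators differed far more from one another than between genotypes. Per kb of merged exons, the scale on which levels of different genes are compared here, Rbfox1 was the most abundant at 83.5 ± 3.79 CPM per kb (SD, n = 9), above 98.3% of all genes tested. Celf4 followed at 47.2 ± 1.52 CPM per kb. Rbfox3 (30.3 ± 1.33) and Rbfox2 (29.2 ± 1.14) came next, and the ranges of this pair over the mice overlapped. Elavl4 (21.9 ± 0.80) and Elavl3 (20.4 ± 0.76) also overlapped. Below them came Ptbp2 (14.4 ± 0.55), Elavl2 (11.7 ± 0.37), Nova1 (4.27 ± 0.34) and Nova2 (1.83 ± 0.16), each with no overlap with its neighbour. Nova2 stood near the middle of all genes, above 41.6% of them. With the longest annotated transcript as the length, Ptbp2 moved ahead of Elavl4 and Elavl3 to the fifth place and the rest of the order was kept.

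**Figure D2:**
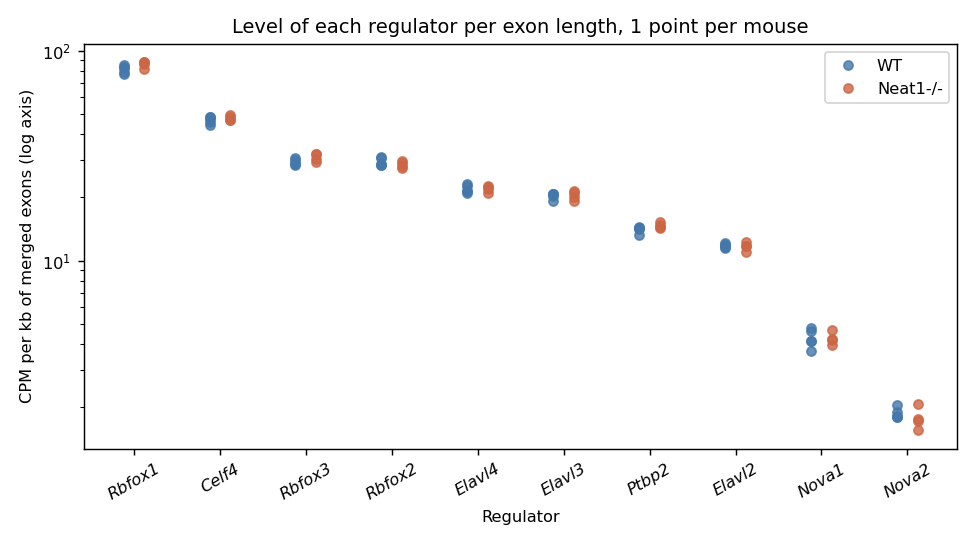
Level of each regulator in CPM per kb of merged exons on a log axis, in order of the mean, with 1 point per mouse (WT blue, Neat1-/- orange). Rbfox1 lies between 77.2 and 87.9 CPM per kb and Nova2 between 1.56 and 2.07, and at each gene the genotypes lie on top of each other.

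Most of these genes are long. Their median span in the genome was 149 kb, against 17.9 kb for all tested genes, and 7 of 10 spanned over 100 kb, as did 12.4% of all tested genes. Their merged exons had a median of 8.23 kb, against 3.64 kb. The tested genes over 100 kb had a median log2 fold change of -0.0111. Each regulator had between 747 and 25687 counts per library, and the coefficient of variation within a genotype ran from 2.12% (Elavl2 in WT) to 11.9% (Nova2 in Neat1-/- mice).

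Among the Rbfox genes, the values of Rbfox1 and Rbfox3 were slightly higher and those of Rbfox2 slightly lower in Neat1-/- mice, and no difference passed the test. Rbfox1 (ENSMUSG00000008658, GRCm38 chr16:5885355-7411526, plus strand), a splicing factor of neurons and muscle whose loss is linked to epilepsy and autism, had 363, 377, 340, 367 and 348 CPM in WT replicates 1 to 5. In Neat1-/- replicates 1, 3, 4 and 5 it had 379, 387, 358 and 387 CPM. All but replicate 4 of the Neat1-/- mice lay above every WT mouse. The means were 359 ± 14.8 (SD, n = 5) and 378 ± 13.5 CPM (SD, n = 4), an increase of 5.26% (log2 fold change 0.074 ± 0.034 SE, edgeR adjusted p = 0.601). The exact two-sided permutation test of the CPM gave p = 0.0873, and the smallest p that this design allows is 0.00794. The fold change was positive in 21 of 21 alternative settings (0.050 to 0.089, adjusted p from 0.245 to 0.893), with an unadjusted p under 0.05 in 8 of them. Rbfox1 and Rbfox3 are on a list of genes that the study drew from these same libraries, so their direction here is not independent evidence.

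Rbfox3 (ENSMUSG00000025576, chr11:118489762-118911597, minus strand) encodes the antigen NeuN, the usual nuclear marker of mature neurons. It had 168, 180, 170, 175 and 167 CPM in WT replicates 1 to 5, and 188, 178, 187 and 172 CPM in Neat1-/- replicates 1, 3, 4 and 5. Replicates 1 and 4 of the Neat1-/- mice lay above all WT mice and the other two among them. The increase was 5.42% (log2 fold change 0.076 ± 0.037 SE, adjusted p = 0.615, exact permutation p = 0.0714), positive in 21 of 21 settings. Rbfox2 (ENSMUSG00000033565, chr15:77078990-77307004, minus strand), the relative that is also widely used outside the nervous system, had 234, 250, 233, 253 and 231 CPM in WT mice. In Neat1-/- mice it had 226, 230, 243 and 237 CPM, within or just below the WT range. Its log2 fold change of -0.039 ± 0.038 (SE, adjusted p = 0.786) was negative in 21 of 21 settings, with an interval from -8.03% to 3.02%.

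These differences add up in the ratio of the relatives, which is taken within each library and so does not depend on the scaling. The log2 ratio of Rbfox3 to Rbfox2 counts was -0.475, -0.471, -0.459, -0.535 and -0.471 in WT replicates 1 to 5. In Neat1-/- replicates 1, 3, 4 and 5 it was -0.262, -0.369, -0.382 and -0.458. Every Neat1-/- value lay above every WT value, although replicate 5 did so by only 0.001. The mean difference was 0.11 (SD 0.030 in WT, 0.080 in Neat1-/-), a 1.08-fold higher ratio, with an exact permutation p of 0.00794, the smallest that the design allows, and p = 0.0714 after adjustment over the 9 ratios examined. The ratio thus did not pass the threshold of 0.05. A ratio that reaches the smallest p alone cannot pass it after this adjustment, so the adjusted test could not decide here. Without any 1 library the difference stayed between 0.079 and 0.14. Without WT replicates 3 and 4 it was 0.10 (exact permutation p = 0.0571, adjusted p = 0.514), and with fewer libraries the smallest possible p is larger. With the deposited log2 values it was 0.098 (exact permutation p = 0.0238, adjusted p = 0.179). There the genotypes overlapped, as Neat1-/- replicate 5 lay below WT replicate 3.

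The ratio of Rbfox1 to Rbfox2 differed by a similar amount, 0.11, but with overlap. It was 0.54 to 0.63 in WT and 0.56 to 0.75 in Neat1-/- mice, where replicate 4 had the lowest value (exact permutation p = 0.0556, adjusted p = 0.25). The ratio of Rbfox1 to Rbfox3 was 1.06 in both genotypes on the log2 scale (difference -0.0014, exact permutation p = 0.944). The 3 ratios share their counts and are not independent of one another.

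**Figure D3:**
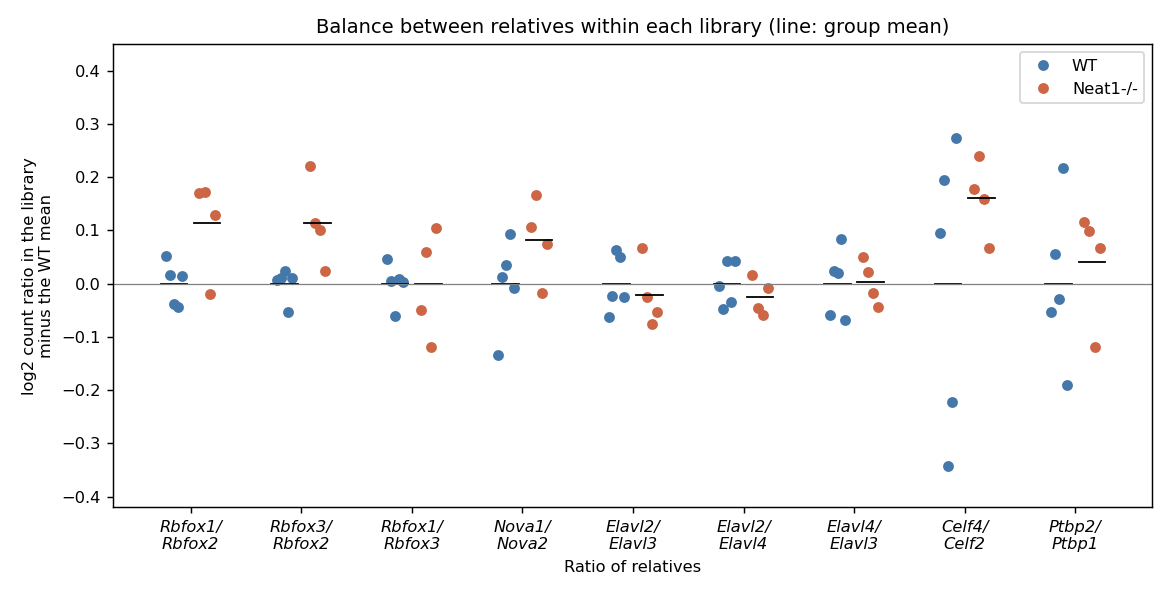
Log2 ratio of the counts of related genes in each library, less the WT mean of that ratio, for 9 ratios, with WT in blue, Neat1-/- in orange and lines at the group means. All 4 Neat1-/- points lie above the 5 WT points for Rbfox3/Rbfox2 alone, and Celf4/Celf2 has the widest WT spread.

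The Rbfox proteins bind the motif TGCATG, with U in place of T in RNA, including in their own transcripts, so the sites in the 3 Rbfox mRNAs are shown. In the longest protein-coding transcript of each gene in GENCODE vM21 (GRCm38), read on the sense strand only, Rbfox1 held 1 site, Rbfox3 held 2 and Rbfox2 held 0. Of the longest transcripts of 15272 tested protein-coding genes, 56.1% held at least 1. Nova1, described next, held 6. Capitals mark the motif in each line. The Rbfox1 site lies in coding sequence of exon 5 (chr16:7277100-7277125, plus strand), and both Rbfox3 sites lie in the 3′ UTR in exon 15 (chr11:118492043-118492068 and chr11:118491283-118491308, minus strand).
Rbfox1: cccaagcggcTGCATGtgtccaacat
Rbfox3, first site: caagagtaacTGCATGccctctctgg
Rbfox3, second site: acggtggcccTGCATGctgcagccga
These are matches of letters in annotated mRNA. Introns, where much Rbfox regulation takes place, were not searched.

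Nova1 and Nova2 encode the paralogous antigens of a paraneoplastic motor disorder and regulate exons of synaptic genes. Nova1 (ENSMUSG00000021047, chr12:46694517-46818929, minus strand) had 32.6, 36.2, 41.8, 40.3 and 36.1 CPM in WT mice. In Neat1-/- mice it had 37.1, 34.8, 40.7 and 36.8 CPM. The group means were 37.4 ± 3.67 (SD, n = 5) and 37.3 ± 2.44 CPM (SD, n = 4), and the interval of the difference ran from -8.69% to 9.54% (adjusted p = 1.0, exact permutation p = 0.984). The log2 fold change of 0.0001 became 0.075 (edgeR adjusted p = 0.828) without WT replicates 3 and 4, the highest WT values, and 0.070 with the deposited log2 values (limma adjusted p = 0.396). Nova2 (ENSMUSG00000030411, chr7:18925888-18965319, plus strand) had 15.02, 15.1, 17.1, 15.9 and 15.3 CPM in WT and 14.5, 13.1, 17.3 and 14.7 CPM in Neat1-/- mice. Replicates 1, 3 and 5 of the Neat1-/- mice lay below all WT mice and replicate 4 above them. Its log2 fold change was -0.075 ± 0.073 (SE, adjusted p = 0.787). This value rested on single libraries. It was -0.16 without Neat1-/- replicate 4, where the genotypes no longer overlapped, -0.020 without Neat1-/- replicate 3 and -0.046 without WT replicate 3, with an adjusted p from 0.539 to 0.979 over all alternatives. Exons of Gm26821, on the opposite strand, cover 31.7% of the merged exon bases of Nova2, and the strand setting of the counting is not given in the sources used here, so reads there cannot be assigned with certainty.

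Age was the other variable among the mice, and no regulator passed the test for it. Nova1 had the largest coefficient in the edgeR test with all 9 mice, and not without WT replicates 3 and 4, where Nova2 had 0.061 and Nova1 0.054 log2 per month. The 2-month-old mice had 32.6 and 36.2 CPM in WT and 36.8 in Neat1-/-, and the 4-month-old mice had 40.3, 36.1 and 40.7. Over both genotypes the age coefficient of Nova1 was 0.075 ± 0.037 log2 per month (SE, edgeR adjusted p = 0.821), and the other 9 regulators lay between -0.034 (Rbfox1) and 0.058 (Nova2). For age, 0 of 10 were called and 0 of 10 had an unadjusted p under 0.05, beside 0% and 5.98% of all genes tested, and DESeq2 and limma called 0 of 10 as well. Without WT replicates 3 and 4, Rbfox1 passed the unadjusted threshold for age (-0.046 log2 per month, edgeR adjusted p = 0.734), as it did without WT replicate 4 alone. Nova1 passed it without a filter on low counts, with limma, and without WT replicate 3 or WT replicate 5. The log2 ratio of Nova1 to Nova2 was 1.2495 ± 0.084 (SD) in WT and 1.33 ± 0.077 in Neat1-/- mice (exact permutation p = 0.175, adjusted p = 0.524). The difference of 0.082 was 0.125 without WT replicates 3 and 4.

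Nova proteins bind clusters of the tetramer YCAY, where Y is a pyrimidine, and an overlapping pair was searched here as TCATCAT. The longest Nova1 transcript held 2 such sites, both in the 3′ UTR in exon 5 (chr12:46699297-46699323 and chr12:46697894-46697920, minus strand), and that of Nova2 held 0. This motif occurs in 24.5% of the transcripts searched. The Nova1 sites are shown as the regulator's own motif in its own mRNA, with the motif in capitals.
Nova1, first site: ggcccattctTCATCATttgtaagttc
Nova1, second site: tgtgcttagtTCATCATgtagcatcac

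Ptbp2 (ENSMUSG00000028134, chr3:119718742-119784466, minus strand), the neuronal polypyrimidine tract-binding protein, had 131, 131, 121, 131 and 133 CPM in WT and 133, 140, 131 and 135 CPM in Neat1-/- mice. WT replicate 3 was the lowest of all 9. The log2 fold change was 0.060 ± 0.036 (SE, adjusted p = 0.654, exact permutation p = 0.0556), an increase of 4.26%, and it was 0.034 without WT replicates 3 and 4. Ptbp1, the non-neuronal relative, averaged 18.2 ± 2.06 CPM (SD) over the WT and 18.4 ± 1.13 CPM over the Neat1-/- mice. The log2 ratio of Ptbp2 to Ptbp1 counts was 2.84 ± 0.15 in WT and 2.88 ± 0.11 in Neat1-/- mice (difference 0.041, exact permutation p = 0.667). This difference was 0.10 without WT replicates 3 and 4 (exact permutation p = 0.286) and 0.12 with the deposited values (exact permutation p = 0.159).

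The polypyrimidine motif TCTTTCT was found 3 times in the longest Ptbp2 transcript, all in exon 14, and in 36.7% of all transcripts searched. Nova2 also held it 3 times, Rbfox1, Rbfox2, Elavl2 and Celf4 2 times each, and Nova1 1 time. The Ptbp2 sites lie at chr3:119720335-119720361 in coding sequence and at chr3:119719882-119719908 and chr3:119718874-119718900 in the 3′ UTR, on the minus strand. They are printed in that order, with the motif in capitals.
Ptbp2, first site: tctgagagtgTCTTTCTccaagtcaac
Ptbp2, second site: ttatcacattTCTTTCTatttaatcta
Ptbp2, last site: accttttctgTCTTTCTctgctgcctt

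The 3 neuronal Elavl genes, which encode HuB, HuC and HuD and serve as early markers of neurons, differed little between genotypes. Elavl2 (ENSMUSG00000008489, chr4:91250763-91400785, minus strand) had 95.6, 98.3, 96.9, 101 and 98.8 CPM in WT and 102, 91.2, 97.8 and 97.6 CPM in Neat1-/- mice. Elavl3 (ENSMUSG00000003410, chr9:22015005-22052023, minus strand) had 143, 143, 133, 140 and 144 CPM in WT and 139, 133, 148 and 145 CPM in Neat1-/- mice. Elavl4 (ENSMUSG00000028546, chr4:110203722-110351909, minus strand) had 115, 122, 113, 124 and 115 CPM in WT and 121, 113, 122 and 118 CPM in Neat1-/- mice. In all 3 genes the genotypes lay within each other's range or nearly so. The log2 fold changes were -0.016, 0.0057 and 0.0073 (adjusted p of 0.923, 0.978 and 0.970), and the 95% intervals over the 3 genes reached from -6.25% to 6.50%. The signs of all 3 turned under some settings. The ratios among them differed by 0.024 or less on the log2 scale (exact permutation p from 0.349 to 0.952). All 3 of their longest transcripts held the AU-rich motif TATTTAT, 3 times in Elavl2, 3 in Elavl3 and 2 in Elavl4, as did 33.4% of all transcripts searched. Of the other regulators, Nova1 held it 4 times, Celf4 3 times and Ptbp2 1 time.

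Celf4 (ENSMUSG00000024268, chr18:25477632-25754157, minus strand), which binds many synaptic mRNAs and whose loss causes seizures in mice, had 406, 413, 381, 391 and 413 CPM in WT and 399, 422, 416 and 403 CPM in Neat1-/- mice. WT replicates 3 and 4 were the lowest. Its log2 fold change was 0.033 ± 0.034 (SE, adjusted p = 0.799), and -0.0098 without these libraries. Celf2, a more widely used relative, was highest in the same libraries, at 278 and 263 CPM against 197 to 222 CPM in the other 7. The log2 ratio of Celf4 to Celf2 was therefore 0.455 and 0.575 in WT replicates 3 and 4 and 0.863 to 1.07 elsewhere. The genotypes differed by 0.16 in this ratio (exact permutation p = 0.349), and by -0.027 without WT replicates 3 and 4.

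**Figure D4:**
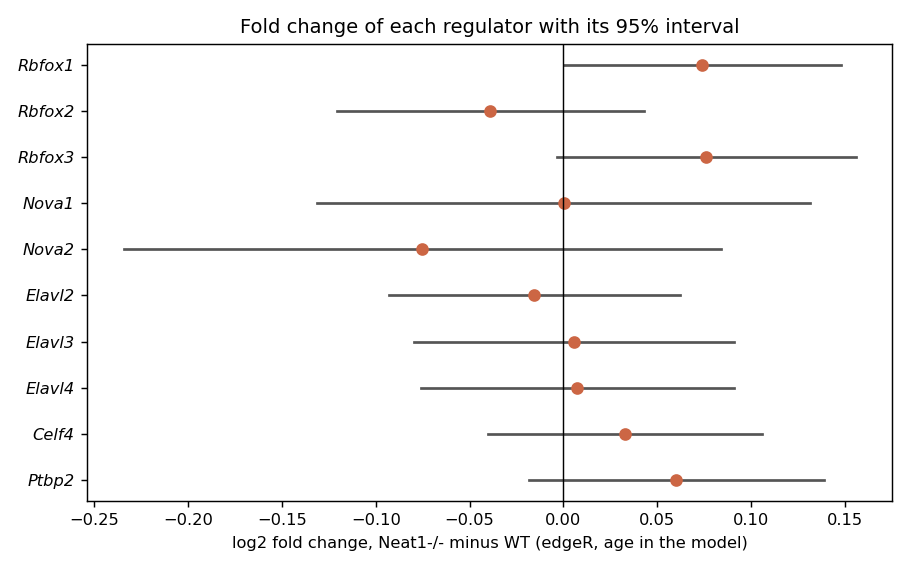
Log2 fold change (Neat1-/- minus WT, edgeR with age in the model) of each regulator as a point, with its 95% interval as a line. The interval of Rbfox1 just clears 0 and the other 9 include it, and the interval of Nova2 is the widest.

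Across libraries the regulators did not move as 1 group. WT replicate 3 had the highest Nova1 and second highest Nova2 value, 0.165 and 0.166 above their means over 9 mice on the log2 scale, and the lowest of Rbfox1, Celf4 and Ptbp2, at -0.112, -0.087 and -0.121. Neat1-/- replicate 3 showed the opposite for Nova2 (-0.226) and Ptbp2 (0.090). The tested genes whose log2 CPM followed Rbfox1 most closely over the 9 libraries were Tvp23a (Pearson r = 0.97), Batf3 (r = 0.962) and Actr1b (r = 0.958), chosen as the highest of all tested genes and given without a test.

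**Figure D5:**
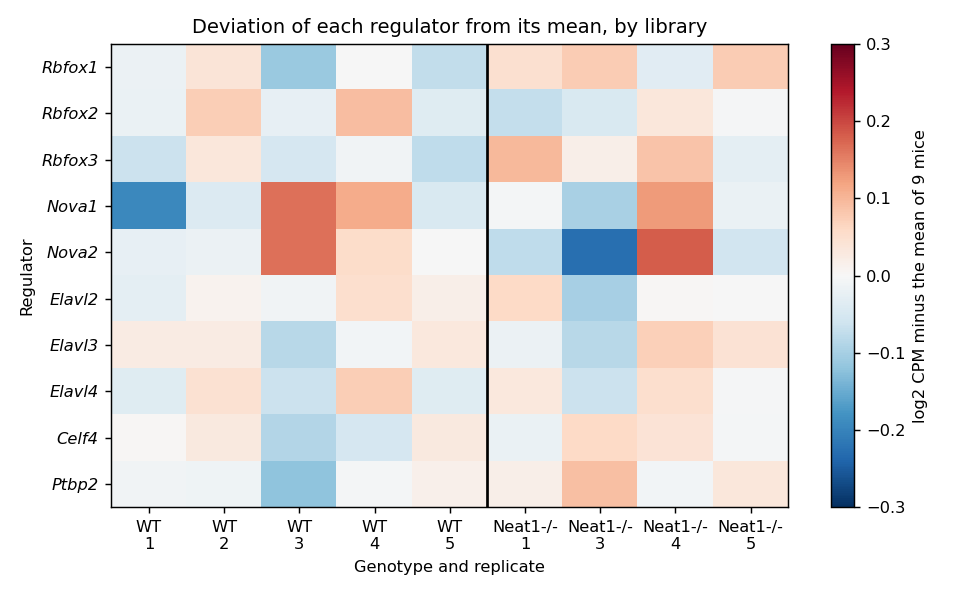
Log2 CPM of each regulator in each library, less its mean over the 9 mice, with red above and blue below the mean and a black line between the genotypes. Nova1 and Nova2 are high and Rbfox1 and Ptbp2 low in WT replicate 3, and both colours occur on each side of the line in all 10 rows.

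The other genes of the same families and functions also held no called gene. Of 8 paralogs (Celf1, Celf2, Celf3, Celf5, Celf6, Ptbp1, Ptbp3 and Elavl1), 0 were called. Beside 4.27% of all genes, 1 was higher at an unadjusted p under 0.05. This was Celf3, with 55.2, 54.5, 51.9, 47.8 and 53.0 CPM in WT and 54.5, 57.3, 57.1 and 55.6 CPM among the Neat1-/- mice (log2 fold change 0.098, edgeR adjusted p = 0.581). Its log2 fold change was 0.061 without WT replicate 4 and 0.048 without WT replicates 3 and 4, neither with an unadjusted p under 0.05. Of 25 other tissue-regulated splicing regulators 23 were tested, and Mbnl3 and Esrp1 fell below the filter. Of the 23, 0 were called. The unadjusted p was under 0.05 for 2 with a higher and 1 with a lower mean, beside 4.27% and 4.03% of all genes. Their median log2 fold change over the 23 was -0.0006.

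Those 3 were low or moderate in level. Rbm38, which regulates mRNA stability, had 0.356 to 0.574 CPM in WT (20 to 31 counts). In Neat1-/- mice it had 0.630 to 0.782 CPM (33 to 50 counts). The ranges did not overlap, beside 1.66% of all genes that were higher in Neat1-/- mice without overlap. Its log2 fold change was 0.68 ± 0.24 (SE, edgeR adjusted p = 0.543, exact permutation p = 0.0159). Rbm38 was not among the genes kept by the minimum of 1 CPM in 4 libraries or in the deposited log2 values. Khdrbs1 (Sam68) had 87.4 ± 1.89 and 92.2 ± 3.69 CPM (log2 fold change 0.077, adjusted p = 0.596), and 0.048 without Neat1-/- replicate 1. Khdrbs2 (Slm1), its neuronal relative, had 17.9 ± 3.64 and 14.8 ± 2.30 CPM (log2 fold change -0.28, adjusted p = 0.599), and -0.072 without WT replicates 3 and 4, which had the highest 2 values, 20.1 and 23.3 CPM.

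Of 16 neuronal RNAs known as targets of these proteins, all were tested and 0 were called by edgeR at an adjusted p under 0.05. The median log2 fold change of the 16 was 0.014. Counts per gene add up all isoforms, so whether exons of these targets were spliced differently cannot be read from these values.

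In bulk cortex, fewer cells of a type and less RNA per cell cannot be told apart, so markers of cell types were set beside the regulators. Neuronal markers were abundant and similar between genotypes: the sum of 14 markers was 10210 to 10840 CPM in WT and 10530 to 10980 CPM in Neat1-/- mice, with a median log2 fold change of 0.0029. At an unadjusted p under 0.05, 1 of the 14 was higher and 1 lower, and 0 were called. Beside this and the counts below stand 4.27% of all genes higher and 4.03% lower. Medians of 10 glutamatergic and 10 GABAergic markers were 0.024 and 0.027, with 2 and 0 higher at that threshold, 0 lower and 0 called. The 12 markers of mature oligodendrocytes were all lower in the Neat1-/- mean (median -0.27, 5 at an unadjusted p under 0.05, 0 called, sums of 2247 to 3486 and 1921 to 2941 CPM). So were the 9 tested progenitor markers (median -0.17, 3 at an unadjusted p under 0.05, 0 called, sums of 216 to 245 and 201 to 217 CPM). Of 10 microglial markers 5 were higher at an unadjusted p under 0.05 and 0 were called (median 0.089, sums of 365 to 422 and 400 to 423 CPM). Medians were 0.041 for astrocytes and 0.0075 for endothelial and mural cells, each with 1 marker higher at an unadjusted p under 0.05. Those of meningeal fibroblasts, choroid plexus and ependyma, and erythrocytes were -0.041, -0.24 and -0.72, with 0 called. Of these, choroid plexus and ependyma had 1 marker lower at an unadjusted p under 0.05. The sums for meningeal fibroblasts and for choroid plexus and ependyma were 50.1 to 285 and 27.5 to 125.8 CPM in WT. In Neat1-/- mice they were 116 to 161 and 21.1 to 32.7 CPM. The part of these cell types in the small differences of Rbfox1, Rbfox3 and Ptbp2 was not tested.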

How the data were processed

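Per the labels, total RNA of frontal cortex was made into ribosome-depleted Illumina TruSeq libraries. The authors deposited a table of counts by Ensembl ID and a table of log2 values that they had normalized. The submitters' processing notes name STAR 2.5.0, HTSeq 0.8.0, limma and mm10, and the study's supplementary methods name TopHat, Bowtie and HTSeq instead. The methods describe TMM, limma's voomWithQualityWeights and age as a covariate.

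The counts were used as deposited, with 0 entries that name no gene and 0 columns of other samples. Names and positions came from GENCODE vM21 (GRCm38), which named 42548 of 43629 IDs (97.5%). The filter was filterByExpr with genotype as the group, and the test was the quasi-likelihood F test of edgeR 4.0.16 under R 4.3.3, with TMM factors and a model of age (months) and genotype, with Benjamini-Hochberg adjustment over all genes at 0.05. edgeR estimated a common biological coefficient of variation of 0.0922. Library totals ran from 51276067 to 64648856 counts. The parts of counting noise and of the spread between mice in the error of the 10 genes were not worked out. Single genes and ratios were compared by two-sided exact permutation tests over 126 divisions of the 9 mice into 5 and 4. P-values set a difference against the spread between these mice. The permutation tests take no account of age. Levels per length used merged exons. Intervals are 95% intervals of the edgeR fit. Motifs were searched as spelled, overlaps allowed, in the longest protein-coding transcript with Python 3.11.15, and figures drawn with Matplotlib 3.10.9. The shares of transcripts that held a motif were not matched for transcript length. The scripts were tested on data made with known changes. Alternatives were RLE, library size or upper quartile scaling, other filters, DESeq2 1.42.0, limma 3.58.1, age left out or as a factor, the replicate number as a block, leaving out single libraries or WT replicates 3 and 4, and the deposited log2 values with limma (13456 genes).

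The 10 genes and all lists were chosen with earlier results of these data known. Genes named beside the 10 regulators were Neat1, their ratio partners, up to 4 genes per list with the smallest unadjusted p under 0.05, and the 3 genes with the highest correlation with Rbfox1. Cell type lists are given by counts and ranges without naming single genes. The value of 1 gene of the target list is not reported here.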

Additional observations from a re-analysis of the deposited data

Results flagged for a closer look

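Ptbp2 in WT replicate 3, at 121.1 CPM, lay far below the other 4 WT mice, which had 130.5 to 133.2 CPM. Its gap to the nearest of them was 0.782 of the group's range, above Dixon's 95% limit of 0.71 for 5 samples. Among the 20 groups examined (10 genes in each genotype) this was the only one past the limit, and chance passes about 1 group in 20. The same library had 0.234% of its counts in unconfirmed (TEC) and sense-intronic gene models. The part of this in the Ptbp2 value was not tested.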

How the results depend on the processing

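Of the 10 regulators, 0 were called for genotype under any of 21 alternatives. For age, 0 were called under any of the 18 that had a linear age term. Of the 9 ratios, 0 passed an adjusted p of 0.05. This last count decides little, since a ratio alone at the smallest exact p cannot pass, and leaving out libraries raises that p. Rbfox1, Rbfox3 and Ptbp2 kept a positive and Rbfox2 and Nova2 a negative log2 fold change in all 21 alternatives. The count of all genes called was 14, and 76 without a filter on low counts, 75 with DESeq2, 22 with limma, 183 with the deposited log2 values and 8 to 30 without single libraries (30 without WT replicate 5, 9 without WT replicate 1, 8 without Neat1-/- replicate 1). Genes at an unadjusted p under 0.05 were 1639, and 1037 to 2879 without single libraries. Regulators higher at an unadjusted p under 0.05 were 1, and 0 with RLE, library size, upper quartile factors, a minimum of 1 CPM in 4 libraries, no age term or age as a factor, 2 without a filter and with the deposited values, and 0 to 2 without single libraries (0 without WT replicates 1, 3 or 5 or Neat1-/- replicates 1 or 3, and 2 without WT replicate 2). Regulators lower were 0, and 0 to 1 without single libraries, the 1 being Nova2 without Neat1-/- replicate 4. That setting also left 1 regulator higher (Rbfox1) and 1 lower (Nova2) without overlap, and the count was 0 to 1 over single libraries. Neat1-/- replicate 4 held the overlapping values of both genes. The share of all genes without overlap at that setting was not worked out, and the shares for 9 libraries do not apply to it. For age at an unadjusted p under 0.05 the count was 0, and 1 without a filter, with limma and without WT replicates 3 and 4, and 0 to 1 without single libraries.

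Some signs turned, mostly of values near 0 apart from Celf4/Celf2 and the age coefficient of Nova2, and the cause was not tested. The log2 fold change of Nova1 was -0.0017 with RLE, -0.0115 with library size and with the CPM minimum, -0.0158 with upper quartile factors, -0.0019 with DESeq2, -0.0093 with age as a factor, -0.0435 to 0.0382 without single libraries, 0.0749 without WT replicates 3 and 4 and 0.0702 with the deposited values. That of Elavl3 was -0.0048, -0.0093 and -0.0049 with library size, upper quartile factors and the CPM minimum, -0.0068 with limma, -0.0285 without WT replicates 3 and 4, -0.0148 with the deposited values and -0.0278 to 0.0319 without single libraries. That of Elavl4 was -0.0033, -0.0077 and -0.0035 with the same first 3 settings, -0.0032 with limma and -0.0125 to 0.0273 without single libraries. Elavl2 ran from -0.0445 to 0.0115 without single libraries. Celf4 was -0.0098 without WT replicates 3 and 4 and -0.0014 with the deposited values. Of the ratios, Elavl2/Elavl3 was 0.0158 and 0.0026 and Celf4/Celf2 was -0.0272 and -0.0254 under these same settings. Without single libraries, Rbfox1/Rbfox3 ran from -0.0367 to 0.0381, Elavl4/Elavl3 from -0.0147 to 0.0236 and Ptbp2/Ptbp1 from -0.006 to 0.0955.

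Same-numbered mice of the genotypes did not deviate together (r of 0.044, -0.045, 0.137 and -0.077 for replicates 1, 3, 4 and 5), so the numbers were not taken as pairs. Of the 4 Neat1-/- libraries, 1 correlated best with its own number. With a replicate block 12 genes were called and 0 regulators, Nova1 was -9e-04, and the age coefficients of Nova1, Nova2 and Rbfox1 were 0.0267, -0.0068 and -0.03. With 5 and 4 mice, differences of a few percent in these regulators are near the spread between mice.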
